A study of Nannochloropsis oceanica with 6 samples.

Results

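The genes described here are those of Nannochloropsis oceanica whose best protein match in the deposited annotation names a part of the mitotic machinery, a cyclin or its kinase, or the microtubule cytoskeleton. They were chosen by words in the Swiss-Prot description of each gene: cyclin, cell division cycle, condensin, structural maintenance of chromosomes (SMC), kinesin, tubulin, kinetochore or mitotic. The words matched 104 genes, none of them a protein kinase of another kind, and 6 were dropped because their listed pathway was the spliceosome (3) or ubiquitin-mediated proteolysis (3). The remaining 98 genes are 0.935% of the 10481 in the tables. They fall into 8 classes by role: 7 tubulin chains, 15 proteins that modify, fold or nucleate tubulin, 23 kinesins, 8 kinetochore and mitotic proteins, 11 condensin and other SMC proteins, 19 cyclins, 10 cyclin-dependent kinases (CDKs) and partners, and 5 cell division cycle proteins. Their roles are those of the best match, most of them worked out in animals, plants or fungi.

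RNA was sequenced from strain IMET1, a small unicellular marine alga studied for its oil. Nitrogen-deprived (ND) cultures held cells grown to logarithmic phase, washed and moved to f/2 medium lacking nitrogen, while nitrogen-replete (NR) cultures held cells of the same pool moved to full f/2 medium. There were 3 separate cultures in each condition, numbered ND1 to ND3 and NR1 to NR3 (values per library follow that order), all kept under continuous light with carbon dioxide bubbling and sampled 72 h after the transfer. The comparison asks which transcripts differed between starved and fed cells.

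A dividing eukaryotic cell separates its chromosomes on a spindle of microtubules, which are polymers of alpha- and beta-tubulin nucleated from gamma-tubulin complexes and worked by kinesin motors. Kinetochores tie chromosomes to the spindle, condensin compacts the chromosomes, cohesin holds sister copies together, and a checkpoint delays their separation until all are attached. Cyclins rise and fall through the cycle and switch on the CDKs that drive it, whereas other cyclin-CDK pairs act in transcription, and other kinesins carry cargo in cells that are not dividing.

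Library totals ran from 3972986 to 5693513 estimated counts. Log2 CPM of cultures of a condition correlated at 0.984 to 0.991 across genes, against 0.839 to 0.846 between conditions, and the biological coefficient of variation was 0.0475. Composition differed with condition: the 100 most abundant genes held 18.33% to 18.59% of TPM (a level scaled for transcript length that sums to the same total in every library) in ND libraries and 25.18% to 25.53% in NR libraries, and the composition factors were 1.111 to 1.123 in ND libraries and 0.890 to 0.908 in NR libraries. The mean gap between deposited length and effective length, which tracks fragment length, was 266.8 to 271.6 bp in ND libraries and 249.4 to 255.2 bp in NR libraries; its part in the results was not tested. RNA came from whole cultures, so fewer cells in a stage of the cycle and less RNA per cell cannot be told apart.

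Enough reads for a test were found for 92 of the 98 genes, and 2 of the other 6 had no read in any library. By edgeR at an adjusted p under 0.05, 37 were higher in ND cultures, 23 were lower and 32 were not called. The called share was 65.2%, against 71.2% of all genes tested. The 37 higher genes were 40.2% of those tested, against 35.7% of all genes, and the 23 lower genes were 25.0%, against 35.5%. A change of at least 2 times was called in 10 genes upward and 10 downward, 21.7% against 21.9% of all genes tested (9.39% upward and 12.5% downward). The ND and NR libraries did not overlap in 60 of the 92 genes, against 73.4% of all genes tested. The median log2 fold change was 0.08, against 0.02 over all genes. The split by direction depends on how libraries are scaled: when only their totals are used, 56 genes were higher and 16 lower, so that 77.8% of the calls were upward in place of 61.7%, while the median of all genes moved to 0.34. Fold changes below use the composition factors.

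The authors' deposited table of changed genes lists 20 of the 98, with 9 higher and 11 lower in ND, which is 20.4% of them against 19.6% of all genes. Its log2 fold changes differ from those fitted here by at most 0.0579. Each of the 20 changed by more than 2 times in that table, a limit that the calls above did not have. The largest rise fitted here, NO27G00850 (log2 fold change 3.55), is not among the 20.

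**Figure D1:**
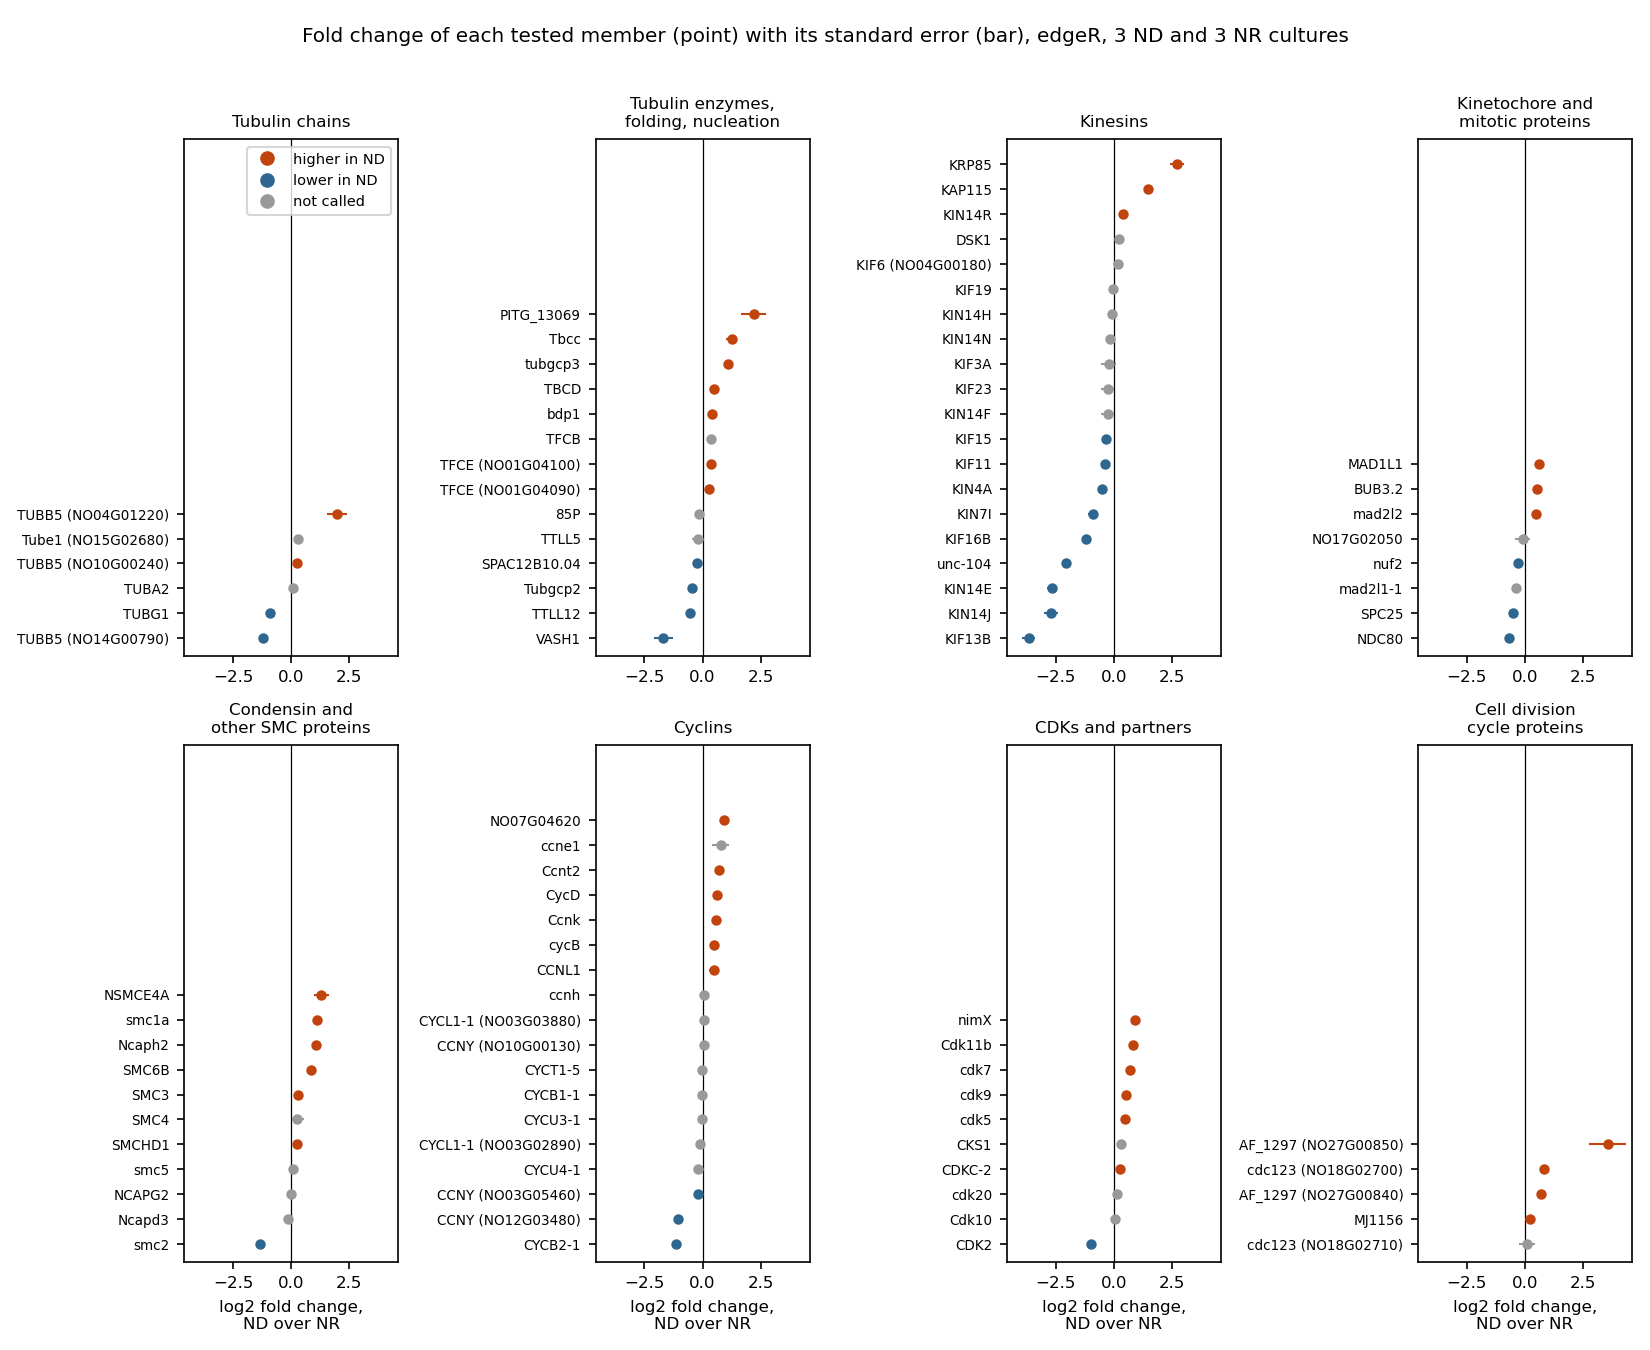
Log2 fold change (x axis, ND over NR) of each of the 92 tested genes, in 8 panels by role; points are edgeR estimates and bars their standard errors, red for higher in ND, blue for lower in ND and grey for not called. Kinesins spread from -3.66 to 2.73, while CDKs and cyclins stay between -1.14 and 0.94.

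With composition scaling, summed tubulin transcripts overlapped between the conditions, while single tubulin genes moved in both directions. The alpha-tubulin gene TUBA2 (NO12G02410), the most abundant tubulin per length at 363 ± 8.40 TPM in ND cultures and 267 ± 31.4 TPM in NR cultures (SD, n = 3 each), was not called with the composition factors used here. It had 409.0, 424.8 and 419.8 normalised CPM (counts scaled to library size and composition) in ND libraries and 418.4, 429.1 and 341.2 CPM in NR libraries. The groups overlapped and NR3 was the lowest of all, for a log2 fold change of 0.08 ± 0.06 (SE) and an adjusted p of 0.3 by edgeR. With upper-quartile factors TUBA2 was called higher (0.19, adjusted p = 0.0107), as with library totals alone (0.39, adjusted p = 1.04e-05).

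Of 3 beta-tubulin genes, all with the same best match (TUBB5), 1 fell by more than 2 times and 2 rose. NO14G00790 had 42.1, 39.2 and 37.25 CPM in ND libraries and 93.3, 97.1 and 79.9 CPM in NR libraries. Every ND library lay well below every NR library, and the log2 fold change was -1.20 ± 0.09 with an adjusted p of 2.46e-10. The main copy, NO10G00240, had 172.4, 180.5 and 174.5 CPM in ND libraries and 162.3, 161.7 and 125.7 CPM in NR libraries, a log2 fold change of 0.23 ± 0.08 (adjusted p = 0.0111). The groups did not overlap, but without NR3 the log2 fold change was 0.12 and the adjusted p 0.084. A minor copy, NO04G01220, averaged 3.84 ± 0.33 CPM in ND cultures and 0.973 ± 0.143 CPM in NR cultures, a log2 fold change of 1.96 ± 0.42.

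The shares that the beta-tubulin genes took of their sum differed between the conditions. NO10G00240 gave 85.4% ± 0.92 of beta-tubulin TPM in ND cultures and 71.0% ± 1.47 in NR cultures. NO14G00790 gave 13.8% ± 0.94 in ND cultures and 28.8% ± 1.43 in NR cultures, with every ND library below every NR library. The 3 genes summed to 221 ± 5.81 TPM over composition factor in ND cultures and 233 ± 33.1 in NR cultures, and these sums overlapped (exact two-sided permutation test, p = 0.4, where 3 against 3 libraries cannot go below 0.1). All tubulin chains together gave a ratio of ND to NR of 0.975 with composition scaling (p = 0.9, exact permutation test). In plain TPM their ratio was 1.22 and that of the 3 beta-tubulin genes 1.18. Neither plain sum overlapped between the conditions (p = 0.1 for each, exact permutation test, the smallest possible). The deposited mean transcript length of NO10G00240, which weights its 2 transcripts, was 5.8% longer in ND libraries. Epsilon-tubulin, a centriole tubulin in animals, is the best match of 2 genes. NO15G02680, whose orthology group is that of beta-tubulin and which was not counted among the beta-tubulin genes above, was not called at 0.31 ± 0.14 (adjusted p = 0.0592), but was called higher without ND2 (0.38, adjusted p = 0.0356) or NR3 (0.38, adjusted p = 0.0406), and the other, also of the epsilon type by orthology group, had no reads. NO15G02680 was called higher with upper-quartile factors too (0.42, adjusted p = 0.0139).

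**Figure D2:**
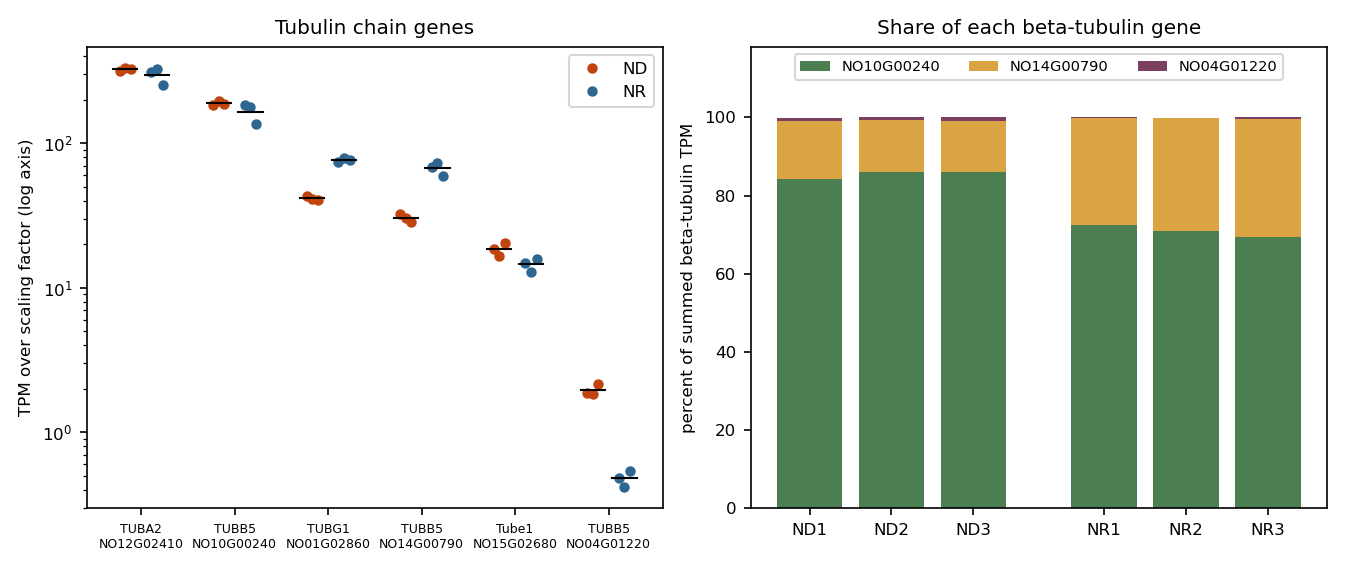
Left, tubulin chain genes in each culture (points) with the group mean (line), as TPM over composition factor on a log axis; right, the percent of summed beta-tubulin TPM from each beta-tubulin gene in each library. NO14G00790 takes 13.2% to 14.8% in ND libraries and 27.4% to 30.2% in NR libraries.

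Gamma-tubulin, which starts new microtubules, and the partners that hold it moved in different directions. TUBG1 (NO01G02860) had 45.2, 43.0 and 42.4 CPM in ND libraries and 80.0, 84.2 and 83.0 CPM in NR libraries. It fell by 0.92 ± 0.08 on the log2 scale (adjusted p = 1.93e-09) with no overlap. Gamma-tubulin complex component 2 (Tubgcp2) fell by 0.46 ± 0.07, a call lost with library totals alone (-0.14, adjusted p = 0.0682), whereas component 3 (tubgcp3, NO20G01080), its partner in the small complex of animals and yeast, rose.

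The gene tubgcp3 had 64.1, 73.3 and 65.3 CPM in ND libraries and 29.1, 29.2 and 35.8 CPM in NR libraries, for a log2 fold change of 1.11 ± 0.10 (adjusted p = 4.45e-09). The lowest ND library lay well above the highest NR library. Component 4 (85P), named with its values seen, was not called at -0.15 ± 0.15, although without NR3 it was -0.32 with an adjusted p of 0.0395. Mitotic-spindle organizing protein 1 (NO17G02050), a small protein that recruits these complexes in other eukaryotes, averaged 3.69 ± 0.60 CPM in ND cultures and 3.84 ± 1.16 CPM in NR cultures and was not called. Summed TPM over composition factor of gamma-tubulin with these 4 partners was 172 ± 13.8 in ND cultures and 208 ± 25.7 in NR cultures, and the libraries overlapped.

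Folding factors, which assemble alpha- and beta-tubulin into the dimer, were higher in ND cultures in 5 of 6 genes, with a median log2 fold change of 0.41; this subset and the other subsets within a class were drawn up after the values were seen. Tubulin-specific chaperone C (Tbcc) had 13.7, 12.35 and 12.8 CPM in ND libraries and 4.58, 4.80 and 6.81 CPM in NR libraries. Its groups did not overlap, and its log2 fold change of 1.25 ± 0.22 (adjusted p = 3.65e-05) was the largest of the folding factors. Chaperone D (TBCD) rose by 0.49 ± 0.13. A gene model that joins chaperone A to a subunit of transcription factor TFIIIB (bdp1) rose by 0.43 ± 0.09, so its reads cannot be split between the 2 proteins.

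Cofactor E is described by 2 models with neighbouring identifiers, NO01G04090 and NO01G04100, that share reads. Each was called higher, but leaving out single libraries took the adjusted p of the first as high as 0.0973 and of the second to 0.0609. Summed as 1 gene, they had 74.2, 73.5 and 77.2 CPM in ND libraries and 53.4, 63.3 and 63.25 CPM in NR libraries, a log2 fold change of 0.33 ± 0.08 (adjusted p = 0.00161). Cofactor B (TFCB) was the folding factor not called, at 0.39 ± 0.19, and it was called higher with upper-quartile factors (0.49, adjusted p = 0.0221). Reads of Tbcc and bdp1 were also shared with other genes, which makes their values less certain.

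Enzymes that write or remove marks on tubulin were lower in 3 of the 5 tested and higher in 1. Tubulin tyrosine ligase-like protein 12 (TTLL12) fell by 0.56 ± 0.07. The tyrosine ligase gene SPAC12B10.04 had 66.8 ± 3.32 TPM in ND cultures and 61.4 ± 3.26 TPM in NR cultures. Its mean TPM over all libraries was the highest of its class, although bdp1 was higher in ND cultures (82.2 ± 5.45 TPM). SPAC12B10.04 fell by 0.26 ± 0.09 on composition-scaled counts (adjusted p = 0.0201, edgeR). Its sign turned to 0.06 with library totals alone, and its call was lost without ND2 (-0.22, adjusted p = 0.0759) or NR1 (-0.21, adjusted p = 0.0869).

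The tubulinyl-tyrosine carboxypeptidase VASH1, which does the reverse of a ligase in animals, averaged 1.22 ± 0.37 CPM in ND cultures and 3.88 ± 0.50 CPM in NR cultures, a log2 fold change of -1.68 ± 0.40. The alpha-tubulin acetyltransferase matched to a Phytophthora gene (PITG_13069) averaged 2.94 ± 0.57 CPM in ND cultures and 0.595 ± 0.551 CPM in NR cultures, a log2 fold change of 2.19 ± 0.56. Both rest on few reads. The polyglutamylase TTLL5, named with its values seen, was not called at -0.21 ± 0.23.

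Kinesins held the widest changes of the 8 classes: 3 were higher, 9 lower and 8 not called among 20 tested, with a median of -0.25 that became 0.06 with library totals alone. Their summed TPM was 0.719 times as high in ND as in NR cultures, and 0.578 times with composition scaling (339 ± 11.8 in ND cultures, 586 ± 9.32 in NR cultures). The libraries did not overlap, with p = 0.1 by an exact two-sided permutation test, the smallest that 3 against 3 allows. A model of 393 bp, KIN14J, weighs heavily in such sums because its effective length is short. Without models under 500 bp the scaled ratio was 0.680.

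Kinesin-3 motors, which carry vesicles along microtubules in animals, were lower in 3 of 3 genes. KIF13B (NO06G00540) had 1.03, 1.26 and 1.88 CPM in ND libraries and 16.0, 16.5 and 22.5 CPM in NR libraries. The groups lay far apart, and the log2 fold change of -3.66 ± 0.28 (adjusted p = 2.58e-10) was the largest fall among the 92 genes. The unc-104 homolog (NO03G01550), chosen after its values were seen like KIF16B, had 46.8, 50.6 and 50.0 CPM in ND libraries and 205.7, 211.9 and 194.3 CPM in NR libraries, a log2 fold change of -2.05 ± 0.07.

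That unc-104 model also matches a deoxynucleotidase (HDDC2) and shares reads. Its weighted transcript length was 15.3% longer in ND libraries, so its transcripts were not used in the same proportions. KIF16B had 91.2, 109.2 and 93.0 CPM in ND libraries and 238.4, 225.8 and 214.2 CPM in NR libraries, a fall of 1.21 ± 0.07 on the log2 scale without overlap. Summed over the 3 genes, TPM over composition factor was 46.6 ± 3.83 in ND cultures and 150 ± 2.99 in NR cultures.

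Kinesin-14 motors, which walk toward the minus end of microtubules and in plants form a large family, split between 2 steep falls and small or no changes. KIN14E (NO08G03070) fell to 3.36 ± 0.58 CPM in ND cultures, against 21.2 ± 1.92 CPM in NR cultures, a log2 fold change of -2.66 ± 0.21. KIN14J (NO08G03080) fell to 1.57 ± 0.42 CPM in ND cultures, against 10.5 ± 2.02 CPM in NR cultures, at -2.69 ± 0.30. The 2 genes carry consecutive identifiers and nearly the same fold change, and whether they are parts of 1 transcript was not tested.

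The other 4 kinesin-14 genes ranged from -0.25 to 0.42. KIN14R rose by 0.42 ± 0.12, and KIN14H, the highest of these 4 in CPM, was not called at 148.9 ± 3.81 CPM in ND cultures and 155.6 ± 4.36 CPM in NR cultures. KIN14F and KIN14N were not called either. KIF6, of the kinesin-9 family, has 2 genes: one was not called at 0.18 ± 0.19, and the other had no reads.

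Kinesins named for the spindle, the chromosomes or the division plane were lower in 4 of the 7 tested and higher in none, all by less than 2 times. The CENP-E type motor KIN7I, which moves chromosomes in animals, fell by 0.91 ± 0.19 on the log2 scale, and KIN4A by 0.50 ± 0.07. KIF11, whose animal form pushes spindle poles apart, fell by 0.39 ± 0.10, and KIF15, which can assist it, by 0.34 ± 0.08. These calls depend on scaling. With library totals alone KIF11 was -0.07 (adjusted p = 0.527) and KIF15 -0.02 (adjusted p = 0.851), and by limma on log2(FPKM + 1) KIN4A was -0.16 (adjusted p = 0.154), KIF11 -0.07 (adjusted p = 0.578) and KIF15 0.08 (adjusted p = 0.387), none of them called lower. KIF19, KIF23 and the diatom spindle kinesin DSK1 were not called; DSK1 was called higher without NR2 (0.41, adjusted p = 0.0333) and with library totals alone (0.54, adjusted p = 0.00409). The orthology group of KIF23 is that of KIF3A, a kinesin-II motor, but it was grouped by its best match and is not in the kinesin-II sum below. All of these were chosen after their values were seen.

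Kinesin-II, the heterotrimeric motor that moves cargo into flagella where cells have them, went the other way. Its accessory subunit KAP115 (NO10G00950) had 85.3, 84.1 and 84.05 CPM in ND libraries and 32.3, 28.9 and 29.4 CPM in NR libraries. The log2 fold change was 1.48 ± 0.09 (adjusted p = 4e-12) with nearly equal ND libraries and no overlap. The motor subunit KRP85 (NO09G02420) had 10.2, 12.45 and 9.50 CPM in ND libraries and 1.48, 1.65 and 1.66 CPM in NR libraries, at 2.73 ± 0.30 (adjusted p = 6.44e-08).

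KRP85 shares reads with the neighbouring model KIF3B, and summed they gave 2.87 ± 0.28 (11.8 ± 0.67 CPM in ND cultures, 1.60 ± 0.10 CPM in NR cultures). KIF3A, named with its values seen, was not called at -0.22 ± 0.33 and 3.21 ± 0.72 CPM in ND cultures against 3.79 ± 0.75 CPM in NR cultures. Summed TPM over composition factor of the 4 genes was 2.94 times as high in ND cultures, 72.6 ± 0.83 against 24.7 ± 2.65 in NR cultures. The set was drawn up after its values were seen, so no p-value is given.

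**Figure D3:**
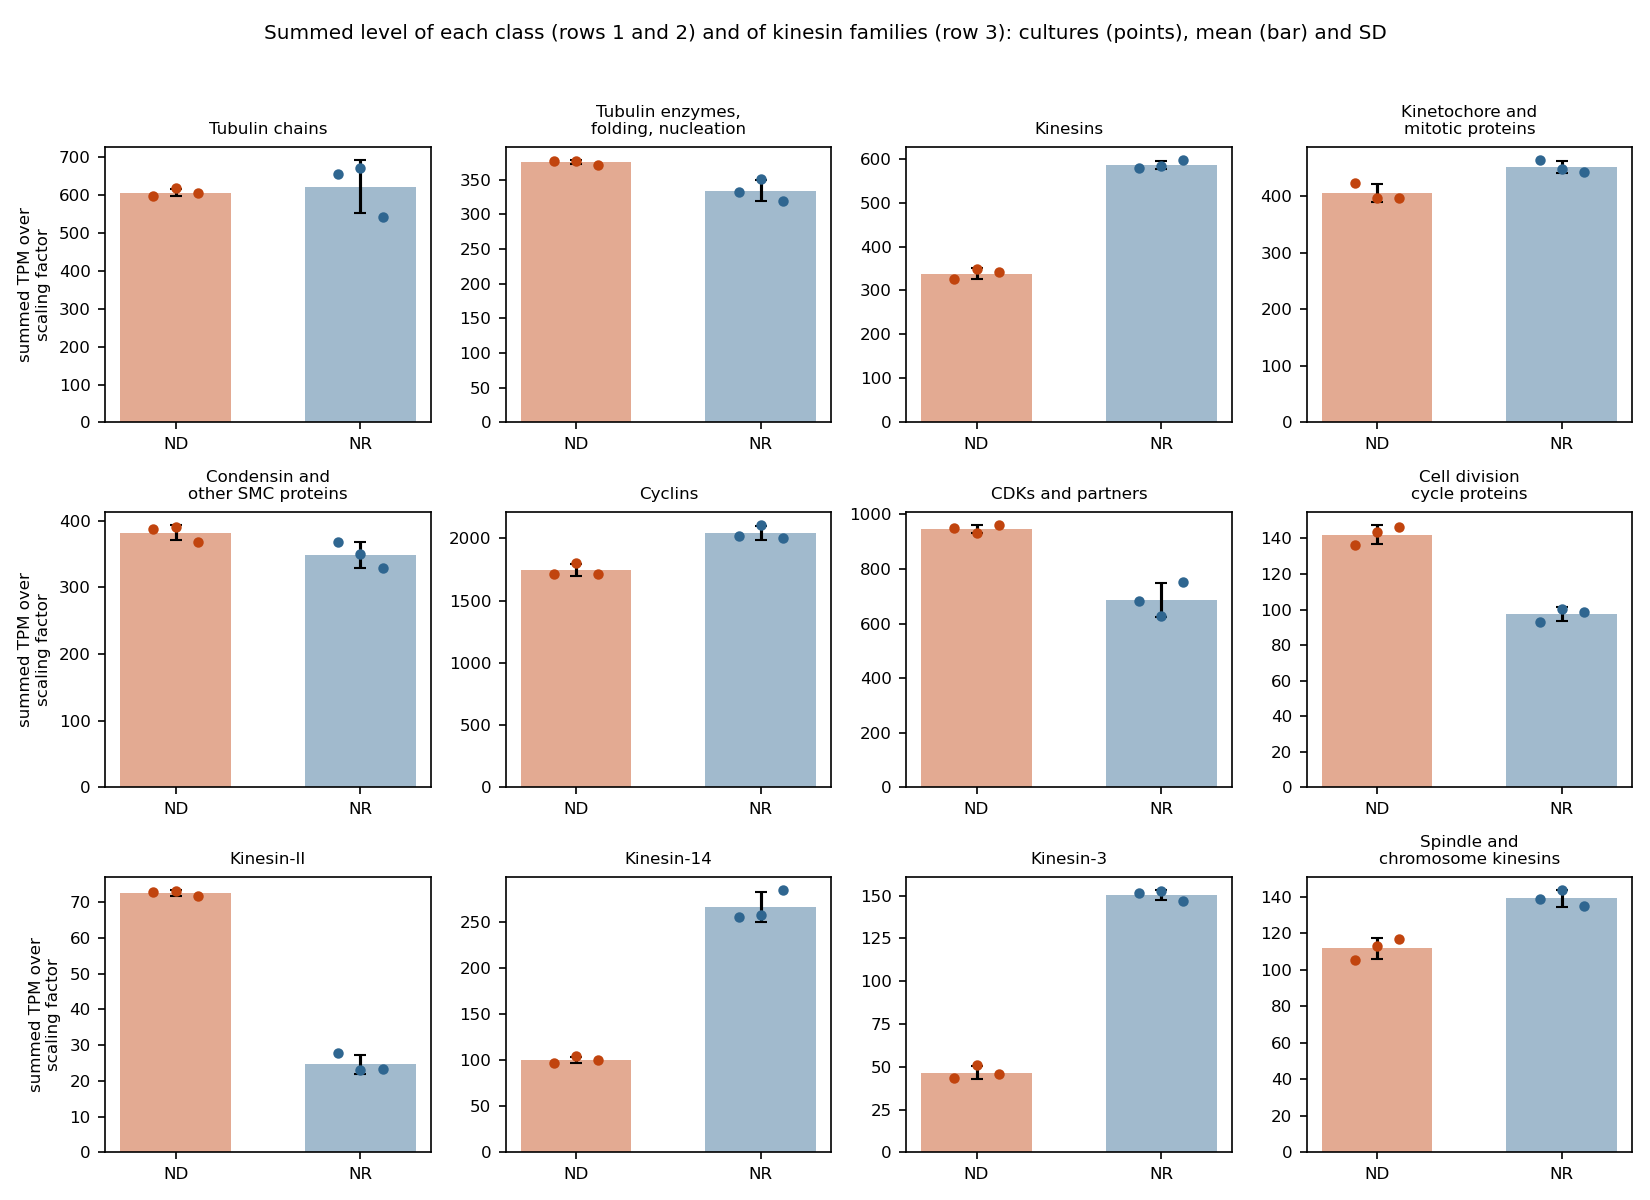
Summed TPM over composition factor (y axis, from 0) of the 8 classes in the upper rows and of 4 kinesin families in the lowest row; points are cultures, bars means and whiskers SD, n = 3 each. Kinesin-II stands at 72.6 in ND cultures and 24.7 in NR cultures, while kinesin-3 stands at 46.6 in ND cultures and 150 in NR cultures.

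Kinetochore and mitotic proteins had 3 higher, 3 lower and 2 uncalled genes of 8 tested. The 3 subunits found of the NDC80 complex, the part of the kinetochore that grips the microtubule, were lower. NDC80 (NO17G02070) had 95.9, 95.3 and 93.75 CPM in ND libraries and 151.2, 146.3 and 156.2 CPM in NR libraries, a log2 fold change of -0.67 ± 0.06 (adjusted p = 5.38e-09). SPC25, the highest of the class in TPM, fell by 0.53 ± 0.13, a call lost with library totals alone (-0.21, adjusted p = 0.139).

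The third subunit, nuf2, fell by 0.30 ± 0.11 (adjusted p = 0.0162), which is less than the shift that scaling makes: it was 0.02 with library totals alone. Its call was also lost without ND2 (-0.24, adjusted p = 0.0772), ND3 (-0.26, adjusted p = 0.0696) or NR3 (-0.22, adjusted p = 0.0926). Summed TPM over composition factor of the 3 subunits was 182 ± 11.1 in ND cultures and 251 ± 19.7 in NR cultures. In plain TPM the sums were 203 ± 12.0 in ND cultures and 225 ± 19.1 in NR cultures, and the libraries overlapped.

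Genes annotated as checkpoint proteins, which hold back anaphase, were higher in 3 of 4 cases. MAD1L1 (NO27G00170) had 72.1, 78.0 and 86.55 CPM in ND libraries and 50.2, 55.6 and 49.4 CPM in NR libraries, a log2 fold change of 0.62 ± 0.09 (adjusted p = 3.48e-06). BUB3.2 rose by 0.50 ± 0.14, with no library of one group inside the range of the other. The MAD2-like gene mad2l2, whose human relative also serves a DNA repair polymerase, rose by 0.47 ± 0.17 (adjusted p = 0.0176), a call lost without ND2 (0.37, adjusted p = 0.0955), NR1 (0.45, adjusted p = 0.0522) or NR2 (0.44, adjusted p = 0.0513).

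The gene annotated as MAD2 itself (mad2l1-1), named with its values seen, was not called at -0.40 ± 0.18 (adjusted p = 0.0521). It was called lower without ND1 (adjusted p = 0.0404) or NR2 (adjusted p = 0.0231), and with median-ratio (RLE) scaling factors (adjusted p = 0.0452). Fold changes of checkpoint and NDC80 complex genes were not tested against each other.

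The condensin and SMC class had 6 higher, 1 lower and 4 uncalled genes of 11, and the lower one is the core ATPase of condensin. The gene smc2 (NO06G01720) had 76.2, 74.7 and 77.0 CPM in ND libraries and 205.4, 182.4 and 182.5 CPM in NR libraries. The groups did not overlap, and smc2 fell by 1.32 ± 0.07 on the log2 scale (adjusted p = 2.99e-13). Its partner SMC4 is a gene model of 697 bp added to the annotation, against 3723 bp for smc2. Whether it covers the whole gene was not tested. The SMC4 model averaged 7.47 ± 1.66 CPM in ND cultures and 6.11 ± 2.26 CPM in NR cultures and was not called.

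Subunits of condensin II, the form that acts early in chromosome compaction in animals, did not follow smc2. Ncaph2 rose by 1.07 ± 0.16, to 20.2 ± 0.59 CPM in ND cultures, against 9.65 ± 0.24 CPM in NR cultures. NCAPG2 was not called at 0.01 ± 0.09, and Ncapd3 was not called at -0.13 ± 0.08 but was called lower without NR3 (-0.21, adjusted p = 0.0229). SMC4, NCAPG2 and Ncapd3 were named with their values seen.

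The genes of this class that belong to cohesin or to the SMC5/6 complex, which acts in DNA repair, were higher or not called. Cohesin's smc1a (NO22G00040) averaged 120 ± 7.36 CPM in ND cultures and 55.7 ± 5.57 CPM in NR cultures, a rise of 1.11 ± 0.08 on the log2 scale. SMC3, with which it pairs in the cohesin ring, rose by 0.27 ± 0.08, but was not called by DESeq2 (0.26, adjusted p = 0.0556). The SMC5/6 subunit NSMCE4A had 10.3, 11.4 and 6.10 CPM in ND libraries and 4.19, 1.65 and 5.27 CPM in NR libraries, so that the groups came close without overlapping; its log2 fold change was 1.29 ± 0.33 (adjusted p = 0.00162).

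SMC6B rose by 0.87 ± 0.10, whereas smc5 was not called at 0.06 ± 0.08. SMCHD1, the most abundant of the class per length at 119 ± 5.98 TPM in ND cultures and 79.3 ± 5.32 TPM in NR cultures, rose by 0.23 ± 0.07. That call was lost without ND2 (0.19, adjusted p = 0.0578) or NR3 (0.17, adjusted p = 0.0537). SMC3, SMC6B and smc5 were chosen after their values were seen.

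**Figure D4:**
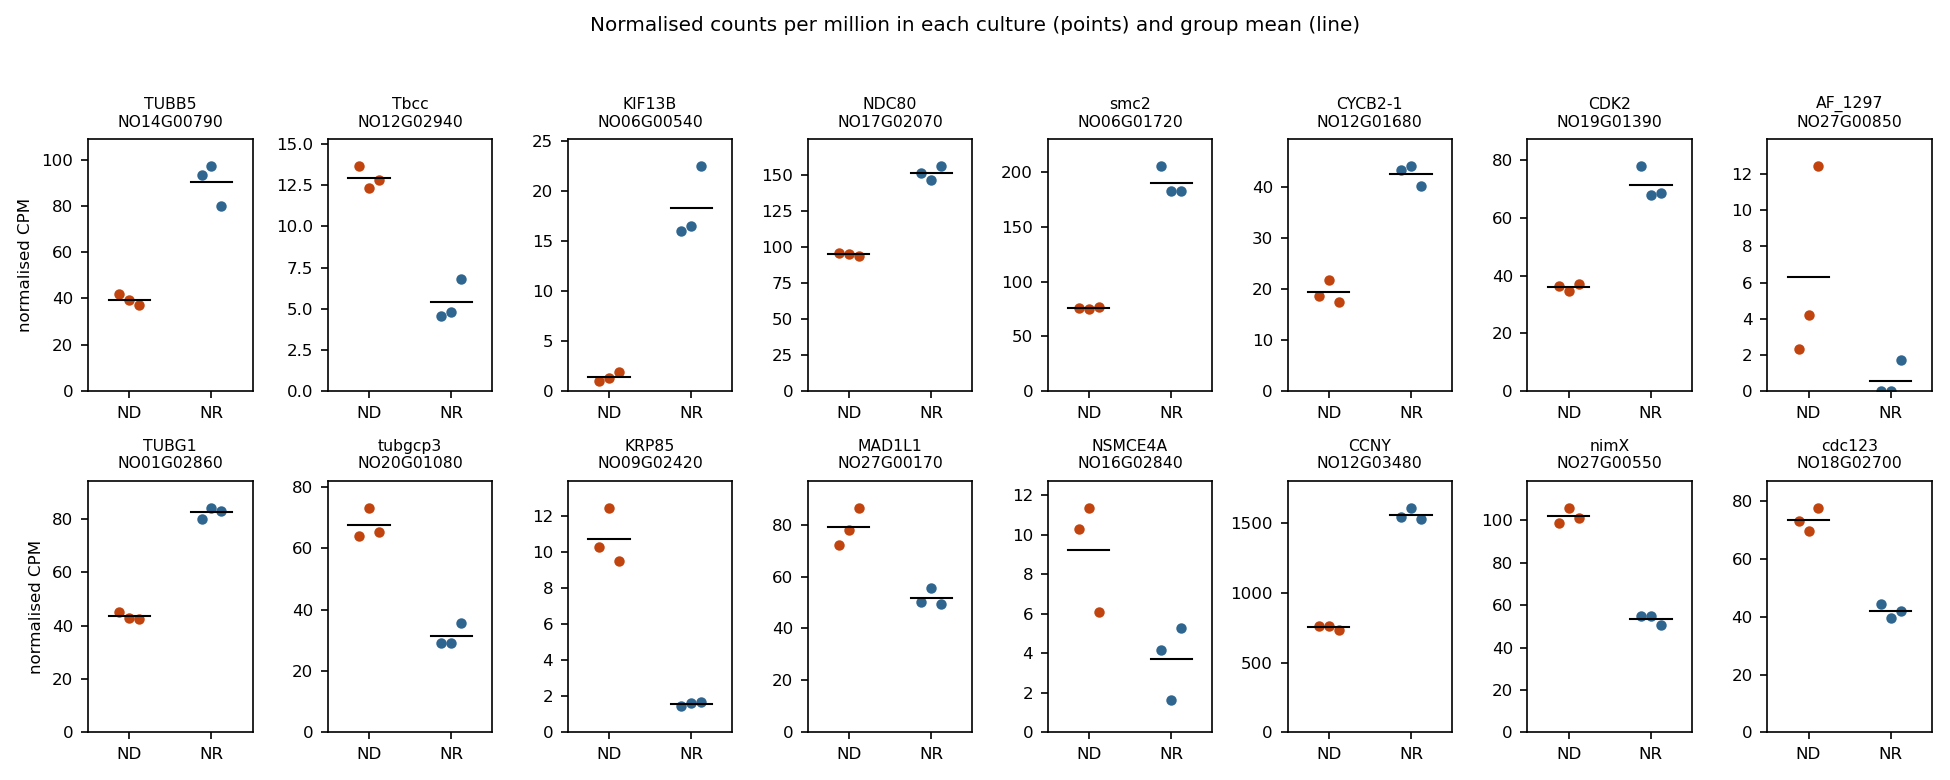
Normalised CPM (y axis, from 0) in each culture for the 2 largest called changes of each class; points are cultures and lines group means. In the 16 genes shown no ND library lies inside the NR range; KIF13B is at or below 1.88 CPM in ND libraries and at or above 16.0 CPM in NR libraries.

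Of 18 cyclins tested, 6 were higher, 3 lower and 9 not called, and B-type cyclins, which drive entry into mitosis, differed among themselves. CYCB2-1 (NO12G01680) had 18.7, 21.8 and 17.5 CPM in ND libraries and 43.3, 44.0 and 40.2 CPM in NR libraries. Its fall of 1.14 ± 0.12 on the log2 scale (adjusted p = 3.75e-08) came with no overlap. The most raised cyclin was also of the B type: NO07G04620 had 82.8, 92.8 and 94.2 CPM in ND libraries and 49.25, 46.2 and 45.2 CPM in NR libraries, a log2 fold change of 0.94 ± 0.08 (adjusted p = 3.32e-09).

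The B-type gene cycB (NO23G01320) averaged 170.5 ± 3.90 CPM in ND cultures and 121.3 ± 11.3 CPM in NR cultures and rose by 0.49 ± 0.07. Another, CYCB1-1, was not called at -0.04 ± 0.17. CycD, whose best match is a D-type cyclin, the type that links growth signals to the start of the cycle in plants and animals, rose by 0.61 ± 0.15 on partly shared reads. Its orthology group is that of A-type cyclins. The gene ccne1, E-type by best match and B-type by orthology group, averaged 4.13 ± 1.28 CPM in ND cultures and 2.36 ± 0.78 CPM in NR cultures and was not called at 0.78 ± 0.37, but was called higher without NR1 (1.08, adjusted p = 0.0455) and with upper-quartile factors (0.89, adjusted p = 0.0376). The A-type gene had too few reads for a test. Of the genes in this paragraph, CycD was picked by rule and the others with their values seen.

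Cyclins that work with transcription kinases (types H, K, L and T) were higher in 3 of 7 genes and lower in none. Ccnt2 rose by 0.72 ± 0.15, to 32.0 ± 4.73 CPM in ND cultures, against 19.5 ± 3.37 CPM in NR cultures. Ccnk rose by 0.56 ± 0.14 with shared reads, and CCNL1 by 0.47 ± 0.19 (adjusted p = 0.0288), a call that ended in 4 of the 6 leave-one-out fits, with adjusted p up to 0.116. The H-type gene ccnh, 2 L-type genes and 1 T-type gene were not called, and the 4 lay between -0.10 and 0.08. All but Ccnt2 were named with their values seen.

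Most cyclin transcript belonged to types Y and U. CCNY (NO12G03480), similar to an animal cyclin that acts at the plasma membrane, had 761.2, 759.8 and 734.8 CPM in ND libraries and 1544, 1611 and 1526 CPM in NR libraries. It fell by 1.05 ± 0.04 on the log2 scale (adjusted p = 1.11e-14) with the groups far apart. It gave 23.4% ± 0.58 of all cyclin TPM in ND cultures and 40.2% ± 0.42 in NR cultures.

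A second CCNY gene, NO03G05460, was called lower at -0.20 ± 0.08 (adjusted p = 0.0378). It was 0.12 with library totals alone, and its call was lost without ND1 (-0.15, adjusted p = 0.164) or NR3 (-0.07, adjusted p = 0.372). The remaining CCNY gene, NO10G00130, was not called, but was called higher with upper-quartile factors (0.18, adjusted p = 0.0233). CYCU3-1, of a type related to the phosphate-signalling cyclins of yeast, was close to equal at 887.5 ± 28.5 CPM in ND cultures and 913.4 ± 24.3 CPM in NR cultures (log2 fold change -0.04 ± 0.04). CYCU4-1 was not called at -0.18 ± 0.09, but was called lower without NR3 (-0.23, adjusted p = 0.0395). The last 3 were named with their values seen.

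Summed TPM over composition factor of types A, B, D and E was 281 ± 14.6 in ND cultures and 220 ± 15.3 in NR cultures, a ratio of 1.27. Types Y and U summed to 1119 ± 40.5 in ND cultures and 1538 ± 33.3 in NR cultures, a ratio of 0.728. Neither sum overlapped between the groups, but both sets were drawn up with values seen, so no p-value is given. In plain TPM the 2 ratios were 1.59 and 0.906.

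Of 10 CDKs and partners, 6 were higher, 1 lower and 3 not called, with a median of 0.38. The lower one is NO19G01390, whose best match is CDK2 while its orthology group is that of CDK1, the mitotic kinase. It had 36.4, 34.65 and 37.1 CPM in ND libraries and 77.8, 67.9 and 68.5 CPM in NR libraries, a log2 fold change of -0.99 ± 0.09 (adjusted p = 3.74e-09).

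Its counterpart NO27G00550, whose best match is the Aspergillus CDK1 gene nimX and whose orthology group is that of CDK2, went the opposite way. It had 99.0, 106.1 and 101.3 CPM in ND libraries and 54.9, 55.0 and 50.8 CPM in NR libraries, a log2 fold change of 0.93 ± 0.08 (adjusted p = 8.78e-10). Neither gene's groups overlapped. Because the 2 annotations name these kinases crosswise, which of them is the mitotic CDK cannot be told here. Another gene, cdk5 (described below), has an orthology group named CDC28 or CDC2, and CDC2 also names the group of NO19G01390. The nimX model also matches a histone methyltransferase.

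Kinases of transcription were higher in 4 of 4 genes. Cdk11b rose by 0.84 ± 0.08 on shared reads, and cdk7, which in animals both activates other CDKs and serves transcription initiation, rose by 0.70 ± 0.08. The elongation kinases cdk9 and CDKC-2, chosen with their values seen, rose by 0.54 ± 0.13 and 0.28 ± 0.07. Their summed TPM over composition factor was 277 ± 6.99 in ND cultures and 176 ± 12.3 in NR cultures, a ratio of 1.57. This set was drawn up with its values seen, so the sum adds no separate support and no p-value is given.

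Outside transcription, the gene cdk5 rose by 0.47 ± 0.09, and Cdk10 and cdk20 were not called; these were named with their values seen. CKS1, a small protein that binds CDKs, was the most abundant of the class per length at 525 ± 14.3 TPM in ND cultures and 287 ± 70.9 TPM in NR cultures, but its model is 315 bp long, with an effective length of 66.3 bp in ND libraries and 77.1 bp in NR libraries. On composition-scaled counts it was not called (18.6 ± 0.97 CPM in ND cultures, 15.2 ± 4.40 CPM in NR cultures), and it was called higher without NR3 (0.55, adjusted p = 0.0083) and with upper-quartile factors (0.40, adjusted p = 0.0481).

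The 5 genes called cell division cycle proteins are not cyclin partners, and 4 of them were higher. Cdc123, which in yeast assembles a translation initiation factor, has 2 models that share reads. NO18G02700 had 73.0, 69.7 and 77.8 CPM in ND libraries and 44.6, 39.7 and 42.2 CPM in NR libraries, a log2 fold change of 0.80 ± 0.09 (adjusted p = 6.22e-08). Its neighbour NO18G02710 was not called, and summed they gave 0.68 ± 0.08.

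The other 3 have as best match archaeal homologs of CDC48, an ATPase that pulls proteins out of complexes. Their orthology groups bear other names, AFG2 (SPATA5) for MJ1156 and RIX7 (NVL) for both AF_1297 models. MJ1156 rose by 0.23 ± 0.08, a call lost without ND3 (0.21, adjusted p = 0.0638) or NR1 (0.21, adjusted p = 0.0544). AF_1297 has 2 models that share reads: NO27G00840 rose by 0.71 ± 0.15, and NO27G00850 had 2.34, 4.20 and 12.4 CPM in ND libraries and 0, 0 and 1.71 CPM in NR libraries. The log2 fold change of NO27G00850, of 3.55 ± 0.79 with an adjusted p of 4.7e-04, rests on a near-empty NR group and was not called by DESeq2 (3.49, adjusted p = 0.0752). Summed, the pair had 42.3 ± 3.10 CPM in ND cultures and 22.5 ± 2.67 CPM in NR cultures, at 0.91 ± 0.12.

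The members also differed in properties that did not choose them. Only 9 reached a mean of 100 TPM, and the median was 29.8 TPM, against 41.0 TPM over all genes. More than 1 transcript was deposited for 36 of the 98, and in 7 of these the weighted length differed by over 5% between conditions, 4 of them longer in ND libraries. Reads shared with other genes touched 17 of the 98. Among the 76 tested genes with whole counts, 26 were higher and 22 lower.

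Genes outside the list that act beside its members were gathered by description into 7 related lists. Of 99 related genes tested, 39 were higher, 30 lower and 30 not called, with a median of 0.09. These are 39.4% higher and 30.3% lower, against 35.7% and 35.5% of all genes tested, and the share called in either direction was above the 71.2% of all genes in 3 of the 7 lists (actin and myosin, division-site proteins and licensing factors). Actin builds the other main filament system. The actin and myosin list, which also holds actin-related proteins, actin regulators and a myosin kinase, had 8 lower and 5 higher of 18. Among its myosin motors, named with values seen, MYO5A, XI-H and myoD were lower, NO08G04060 was higher and NO22G01250 was not called. The actin gene ACTBL2 fell by 1.19 ± 0.06 with shared reads, and myosin light chain kinase A (mlkA) rose by 1.73 ± 0.05. Both other actin genes, NO03G02590 and NO03G02610, named with their values seen, fell by 0.51 ± 0.06 and 0.86 ± 0.06, also on shared reads.

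Dynein and intraflagellar transport genes had 14 higher and 8 lower of 32 tested, and 9 of the 50 on the list had no read at all. Cells of this genus are round and not known to carry flagella. Flagellar radial spoke protein 5 (RSP5, NO04G04610) rose by 2.02 ± 0.07, to 332.4 ± 28.5 CPM in ND cultures, against 82.2 ± 2.23 CPM in NR cultures, while Cep164, a centriole protein in animals, fell by 1.28 ± 0.12. Among the cargo of kinesin-II, named with values seen, the IFT46 genes NO01G05950 and NO02G06210 rose by 1.91 ± 0.16 and 1.44 ± 0.15 on shared reads. Ift172 rose by 1.21 ± 0.18. Ift81 (NO17G01070) was lower at -0.73 ± 0.24, and Ift88 fell by 0.27 ± 0.10. IFT52 was not called at 0.10 ± 0.16, nor was IFT56 (ttc26) at -0.07 ± 0.16. Subunits of cytoplasmic dynein, also named with values seen, differed. The heavy chain (DYNC1H1) fell by 0.61 ± 0.07, while the intermediate chain (dync1i2a) rose by 0.32 ± 0.10. The light intermediate chain (DYNC1LI1) was not called at 0.06 ± 0.18.

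The kinases and partners of mitosis outside the list were mixed too. Aurora and Wee1 kinases had 3 lower and 1 higher of 6: AURKA fell by 1.18 ± 0.21, and wee1-b, an inhibitor of mitotic entry, rose by 0.62 ± 0.19 on shared reads, a call lost without NR1 (0.48, adjusted p = 0.0527). Of 5 microtubule-associated genes, the plus-end protein MAPRE1 fell by 0.75 ± 0.13 and the severing enzyme Spast rose by 0.70 ± 0.15 on shared reads. Anaphase and cohesion genes had 7 higher and 3 lower of 17. Among their cohesin genes, named with values seen, rad21a was lower on few reads, at -0.92 ± 0.35 (adjusted p = 0.0237). The genes rad21 (0.01 ± 0.13) and STAG2 (-0.08 ± 0.10) were not called, while the cohesion gene PDS5A rose by 0.40 ± 0.07. The gene model CSR1, which also matches anaphase-promoting complex subunit 7, rose by 1.05 ± 0.07, APC10 fell by 0.51 ± 0.10 (-0.19 and not called with library totals alone), both on shared reads, and separin (bimB), the protease that cuts cohesin, was named with its value seen at 1.07 ± 0.08.

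Division-site proteins had 5 higher and 1 lower of 8. SEPTIN7 rose by 0.40 ± 0.05, and the FtsZ gene NO11G01380, from the family that divides plastids, fell by 0.58 ± 0.05. The other FtsZ genes, named with their values seen, differed from it: NO05G03250 rose by 0.34 ± 0.07 and NO12G02650 was not called at -0.24 ± 0.12. Licensing factors, which load the replicative helicase before S phase, had 6 higher and 6 lower of 13: Orc1 rose by 2.12 ± 0.11, to 61.03 ± 1.37 CPM in ND cultures, against 14.1 ± 0.34 CPM in NR cultures, and mcm5-b fell by 1.05 ± 0.11.

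**Figure D5:**
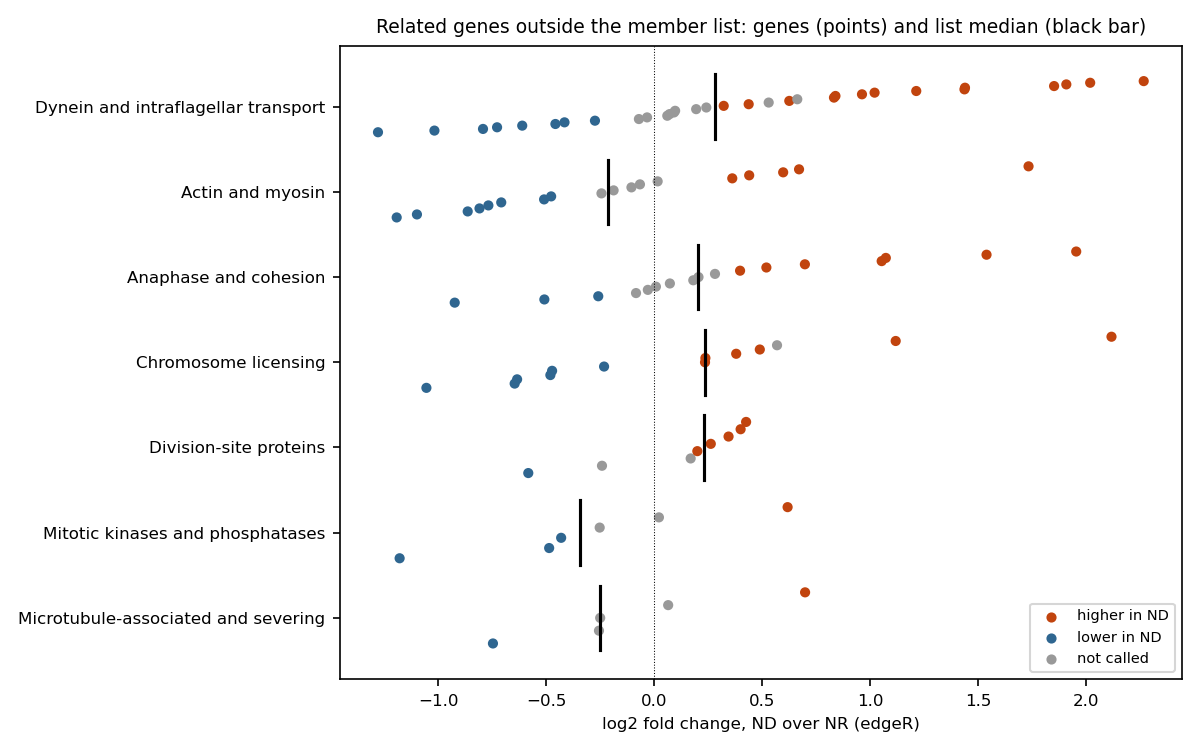
Log2 fold change (x axis, ND over NR, edgeR) of the tested genes of the 7 related lists; points are genes, red higher in ND, blue lower in ND and grey not called, and black bars are list medians. Medians run from -0.34 for mitotic kinases to 0.28 for dynein and intraflagellar transport.

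The 6 genes that the pathway clause dropped did not move together. The 3 models of the splicing factor CDC5L, with consecutive identifiers, fell by 0.25 to 0.68 on the log2 scale. CDC27B, a subunit of the anaphase-promoting complex, rose by 0.85 ± 0.11, and both CDC20-2 genes, its activators, were not called at -0.02 ± 0.06 and 0.06 ± 0.08.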

How the data were processed

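RNA from 3 ND and 3 NR cultures of strain IMET1 was sequenced after 72 h. The submitters' processing notes list, without versions or roles, edgeR, StringTie, featureCounts, Picard, STAR and Trim Galore; which of them counted reads, and on which genome build, is not given in the sources used here. The authors deposited an expected count (an estimated count of reads) per gene, unnormalised per the file headers. The authors scaled the deposited TPM for effective length, and the deposited FPKM for effective length and library total, per the file headers. The authors' deposited table of ND against NR gives a log2 fold change and p-value per listed gene. All per-sample columns could be assigned (0 left over).

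Expected counts were rounded and tested over all 10481 genes with edgeR 4.0.16 under R 4.3.3: low genes were removed by filterByExpr, libraries scaled by trimmed means (TMM), ND set against NR by the quasi-likelihood F test, and p-values adjusted by Benjamini-Hochberg over all genes tested, at 0.05. The standard error is the absolute log2 fold change over the square root of F. Normalised CPM is not scaled for length; TPM is, but not for composition, so summed TPM was divided by the composition factor. Counts within 0.005 of a whole number in every library were taken as unshared. The fit was checked on simulated counts. Library pairs of a condition differed beyond counting error (chi-square per degree of freedom 1.73 to 3.05), so none was taken as a duplicate. The replicate numbers do not pair the cultures, as the dependence on processing describes.

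The members and lists were chosen with earlier results of these data known. Named genes are, in each class of over 6 genes, the 3 largest called rises and falls and the highest mean TPM, every gene of smaller classes, and the smallest p per direction in each related list; values per library are given for the 2 largest called changes of a class with at least 5 CPM. VASH1 was placed with the modifying enzymes although the class words did not hold its name, and related-list words matching inside other words were left out. The reference table holds 160 genes and matched 0 gene identifiers, so no position or sequence is printed. Alternatives used DESeq2 1.42.0 and limma 3.58.1.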

Additional observations from a re-analysis of the deposited data

How the results depend on the processing

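Calls depend on how libraries are scaled and on the size of change tested. Scaled by their totals only, 56 of the 98 genes were higher in ND (16 lower), 5075 of all genes were higher and 2149 lower, and 18 related genes were lower. By limma on log2(FPKM + 1) and log2(FPKM + 0.1), which scale by totals too, 15 and 15 of the listed genes were lower, 5090 and 5059 of all genes higher, 2031 and 2019 lower, and 13 and 13 related genes lower; 78.3% of the listed calls and 71.5% of all calls were then upward, against 61.7% and 50.2%. Against a change of 1.5 times, 15 listed genes were higher and 12 lower, 1298 and 1559 of all genes, and 17 and 9 related genes. Whole counts alone left 25 related genes higher, since fewer genes were tested. A turned sign was counted only for genes called in the main fit or in the alternative. Genes called in neither could also turn and are not listed. Counted so, signs turned with totals only in 8 listed genes: NO01G01210 (0.28), nuf2 (NO01G01300, 0.02), NO02G01450 (0.06), NO03G05460 (0.12), NO06G02720 (0.31), NO11G01790 (0.18), NO14G02130 (0.28) and NO17G00500 (0.25). By the 2 limma settings they turned in NO01G01210 (0.29, 0.30), NO01G01300 (0.01, 0.01), NO02G01450 (0.08, 0.08), NO03G05460 (0.17, 0.17), NO14G02130 (0.28, 0.28), NO17G00500 (0.24, 0.26) and KIF15 (NO17G02080; 0.08, 0.09).

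Leaving out 1 culture at a time gave 33 to 37 listed genes higher and 21 to 24 lower, 3091 to 3258 and 3149 to 3255 of all genes, and 36 to 38 and 28 to 29 related genes; 50 of the 60 calls held in every such fit, 10 were lost in at least 1 and 8 genes gained one. Other settings were RLE and upper-quartile factors, DESeq2, count filters, an adjusted p of 0.01 and summed adjacent models, the last chosen after seeing the data. They turned no sign among those named and listed genes that were called in the main fit or in the alternative. Signs of genes called in neither were not counted. DESeq2 called 30 higher and 21 lower, 9 calls fewer (nuf2, NO01G04090, SPAC12B10.04, CCNL1, MJ1156, mad2l2, SMC3, NO27G00850 and SMCHD1). Upper-quartile factors lost 3 calls (nuf2, SPAC12B10.04 and NO03G05460) and gained 7 (TUBA2, NO15G02680, TFCB, CKS1, ccne1, NO10G00130 and NO03G03880). Same-numbered cultures of the 2 conditions deviated together with correlations of 0.019, 0.036 and 0.089, so the numbers were not taken as pairs. Not every culture correlated best with its own number: ND1 correlated at 0.0256 with NR2. With replicate number as a block, 38 listed genes were higher and 24 lower. Low counts limit VASH1, PITG_13069, NO04G01220, NO27G00850 and NSMCE4A, each averaging under 10 CPM in both conditions.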
